A study of Homo sapiens with 8 samples.

Results

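The butyrophilin cluster on the short arm of chromosome 6 holds 6 protein-coding members, BTN3A2, BTN2A2, BTN3A1, BTN3A3, BTN2A1 and BTN1A1, and their promoters were followed in H3K4me3 ChIP-seq peak lists from U2OS, a human osteosarcoma line. Members were taken by name, and peaks were counted as theirs up to 3 kb to either side of where the MANE Select transcript starts (its 5′ end). They are 6 of the 20033 protein-coding promoters of the annotation. Wild type (WT) clones were compared with clones in which ZBTB48, a telomere- and promoter-binding zinc finger protein, had been knocked out (KO). Each genotype had 3 libraries, each from its own clone, and all cells had received 250 U/ml IFNγ for 24 h. Every library came from treated cells, and no value below measures induction by IFNγ. The lists hold no measure of ZBTB48 itself, so the genotype labels were not checked here.

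H3K4me3, trimethylated lysine 4 of histone H3, marks the promoters of active and poised genes. Butyrophilins are membrane proteins of the immunoglobulin superfamily, related to the B7 costimulatory molecules. BTN2A1 and BTN3A1 act together in the response of the main γδ T-cell subset of human blood to phosphoantigens, small metabolites of isoprenoid synthesis. BTN2A2 restrains αβ T-cell activation and is known to depend on CIITA, the class II transactivator, which works through paired X and Y boxes in the promoters of MHC class II genes. The BTN3A genes are known as interferon-induced, and BTN1A1 takes part in milk fat secretion.

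The promoter sequences are shown first because all 5 members that carried a peak held an X-Y pair, with the Y box in either orientation. The pair was exact at 4 of them and had 1 other base at BTN2A2. The sequences below are GRCh38 reference sequence, plus strand, 5′ to 3′. The X box core (GCAAC, bound by RFX factors) and the Y box (CCAAT or its reverse complement ATTGG, bound by NF-Y) are in capitals. The reading of these pairs with either orientation of the Y box, and with 1 other base allowed in the core, was chosen after the sequences were seen. The form first looked for, as in class II promoters, was an exact core followed by ATTGG, and only BTN2A1 held it.
BTN3A2, chr6:26365134-26365176: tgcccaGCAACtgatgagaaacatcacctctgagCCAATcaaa
BTN3A1, chr6:26402201-26402243: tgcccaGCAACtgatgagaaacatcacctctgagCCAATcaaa
BTN3A3, chr6:26440436-26440478: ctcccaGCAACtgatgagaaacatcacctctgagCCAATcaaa
BTN2A1, chr6:26457837-26457880: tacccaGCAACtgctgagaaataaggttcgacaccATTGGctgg
BTN2A2, chr6:26383011-26383056: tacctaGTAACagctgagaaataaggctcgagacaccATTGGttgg
The BTN3A genes share 23 bases between core and Y box and carry CCAAT. BTN2A1 has 24 and BTN2A2 has 26 bases between them, and both carry ATTGG. The X box core of BTN2A2 holds the substitution C2T, counted from 1 at the 5′ base of the core.

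An exact core followed on the same strand by either form of the Y box after 20 to 35 bases was found, in the 300 bases upstream of the 5′ end, at 4 members and at 1.38% of all 20033 promoters. With ATTGG alone the pair was found at 1 member, BTN2A1, and at 0.604% of all promoters. With CCAAT alone it was found at 3 members, the BTN3A genes, and at 0.809%. The BTN3A promoters are alike in sequence, so their matches are not independent. When 1 other base was allowed in the core, as BTN2A2 needs, the ATTGG pair was found at 9.55% of all promoters, the CCAAT pair at 10.3% and either at 16.7%. The last share is the background of the count of 5 members. BTN1A1 held no such pair. A match describes letters in a window and does not show a bound site.

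The upstream sequence of BTN2A2 is given whole, chr6:26382808-26383095 on the plus strand, because it alone among the members also held the core of an interferon-stimulated response element. Capitals mark that core (TTTC, any 2 bases, TTTC, read on the minus strand) and the ATTGG and CCAAT boxes.
BTN2A2: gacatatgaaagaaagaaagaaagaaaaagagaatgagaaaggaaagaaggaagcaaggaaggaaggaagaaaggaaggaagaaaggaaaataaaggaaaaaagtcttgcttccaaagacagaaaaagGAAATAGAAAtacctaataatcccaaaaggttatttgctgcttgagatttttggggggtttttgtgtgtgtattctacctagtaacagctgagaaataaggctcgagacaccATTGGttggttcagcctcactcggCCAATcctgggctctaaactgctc
The response element core lies at -172 to -163 from the 5′ end, in a stretch rich in A and G, and 3.45% of all promoters hold one. No member held a GAS element (TTCNNNGAA, the gamma-activated sequence, both strands), which 7.11% of promoters hold, or the CREB core TGACG, which 28.1% hold. The telomere repeat TTAGGG, a sequence that ZBTB48 binds, was present once, at -37 to -32 in BTN2A1, and in 9.5% of all promoters. The GC box GGGCGG was in no member and in 60.8% of promoters.

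All members were poor in CpG for their class. In the 1001 bases centred on the 5′ end BTN2A1 had 34 CpG and BTN2A2 had 24, while BTN3A2, BTN3A1 and BTN3A3 had 15, 11 and 10 and BTN1A1 had 14. The median over all promoters was 66. The 300 upstream bases were 81.8% identical between BTN3A2 and BTN3A3, 79.0% between BTN3A1 and BTN3A3, 73.8% between BTN3A2 and BTN3A1 and 64.1% between BTN2A2 and BTN2A1. Between the BTN2A and BTN3A promoters the values were 44.4 to 49.1%, against 44.1 to 46.8% between BTN1A1 and the others. Because the authors removed reads mapping to several places, repeated sequence was counted. Of the 100-base words in the 3 kb on either side of the 5′ end, 4.00% occurred a second time on chromosome 6 at BTN3A2 and BTN3A3, 0.729% at BTN2A1 and 0% at BTN2A2, BTN3A1 and BTN1A1.

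A promoter was called where a peak lay no more than 1 kb from the 5′ end. By this rule 5 of the 6 members were called in all 6 libraries and BTN1A1 in none, and the number per library was 5 in each WT and each KO clone. Among all promoters 65.1% were called in all 6 libraries and 30.3% in none, so the members' share lies near the background. A call in all 3 WT and no KO library was found at no member and at 0.105% of all promoters. At BTN1A1 (ENSG00000124557, 5′ end at 26500303) the nearest peak of any library began 20045 to 20373 bp downstream of the 5′ end, at the 5′ end of the lncRNA HCG11. The lists hold no read counts, so a missing peak says only that none was called at that library's depth, which is unknown here.

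**Figure D1:**
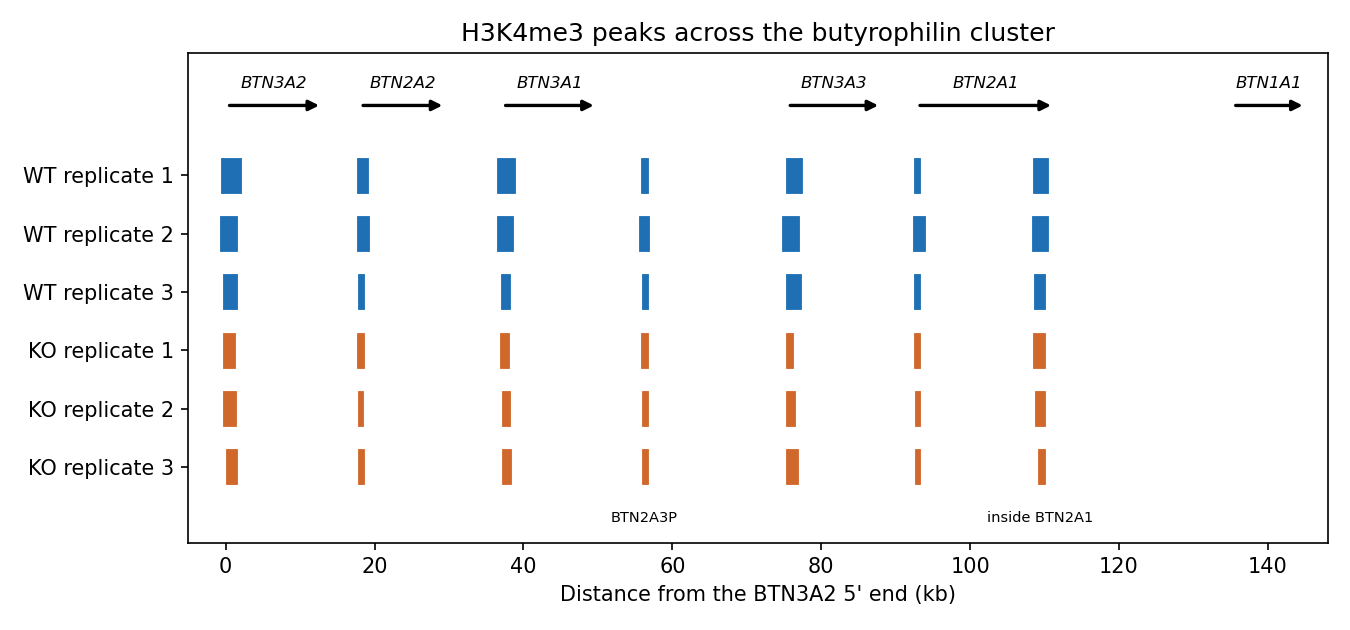
Peaks (boxes) of the 6 libraries across the cluster, plotted by distance in kb from the BTN3A2 5′ end, WT in blue and KO in orange, with each gene drawn as an arrow in its direction of transcription. The same 7 places carry a peak in each of the 6 libraries, and BTN1A1 carries none.

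The lists differed in kind in a way that bears on every length below. Median peak width was 2297 and 2353 bp in WT replicates 1 and 2 and 1275 to 1487 bp in WT replicate 3 and the KO lists. At promoters covered in all 6 lists, the median covered length within 3 kb was 3330, 3259 and 1979 bp in the WT and 1940, 1769 and 1670 bp in the KO libraries. Each member's length is therefore also given divided by this library median, called scaled covered length, and WT replicate 3 is set against the KO libraries alone. Which part of a length difference belongs to genotype and which to the kind of list cannot be told apart. The osteoblast-lineage genes COL1A1 and RUNX2 had a peak within 1 kb in all 6 libraries. SPP1 had one within 1 kb in 1 WT and 1 KO library and coverage within 3 kb in all 6, while PTPRC, a blood cell marker, had neither.

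BTN2A2 (ENSG00000124508, chromosome 6, 26383096 to 26394874, plus strand) kept its peak over the 5′ end at 26383108 in all 6 libraries. Covered length was 1602, 1648 and 896 bp in WT replicates 1, 2 and 3 and 920, 719 and 714 bp in KO replicates 1, 2 and 3. WT replicate 3 fell below KO replicate 1, so the genotypes overlapped. WT libraries averaged 1382 ± 422 bp and KO libraries 784 ± 118 bp (SD, n = 3 each), 598 bp apart (exact permutation p = 0.2). The test is two-sided, and its smallest p here is 0.1. On the scaled measure the values were 0.481, 0.506 and 0.453 in WT and 0.474, 0.406 and 0.428 in KO, and they overlapped too (difference 0.0438, exact permutation p = 0.2).

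The edges of the BTN2A2 peak show where length differed. The peak began at -330, -330 and -176 bp from the 5′ end in the WT libraries and at -287, -132 and -89 bp in the KO libraries. Its downstream edge lay at 1271, 1317 and 719 bp in WT and at 632, 586 and 624 bp in KO. Exon 1 of BTN2A2 is 74 bp long and exon 2 begins at 26383792, so the WT replicate 1, 2 and 3 peaks ended beyond the start of exon 2 and every KO peak ended in intron 1. The share of all promoters whose downstream edge separates in this way was not computed. Covered length is a different measure, on which the genotypes overlapped at BTN2A2 before and after scaling. In covered length 50.8% of covered promoters had every WT above every KO library, and 5.75% after scaling. How far the kind of list sets these edges was not tested. The X-Y pair lay wholly under the peak in 3 WT and 2 KO libraries, and the KO replicate 3 peak began just inside it.

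BTN2A1 (ENSG00000112763, 26457904 to 26476621, plus strand, 5′ end at 26457955) had the shortest peaks of the members. Its covered length was 869, 1614 and 846 bp in the WT and 822, 616 and 612 bp in the KO libraries. Every WT value exceeded every KO value, by 24 bp between WT replicate 3 and KO replicate 1. WT libraries averaged 1109.7 ± 437 bp and KO libraries 683 ± 120.1 bp (SD, n = 3 each), 426 bp apart (exact permutation p = 0.1). Without WT replicate 2 the difference was 174 bp (exact permutation p = 0.2). The scaled values were 0.261, 0.495 and 0.427 in WT and 0.424, 0.348 and 0.366 in KO, where WT replicate 1 was the lowest and WT replicate 2 the highest of all (difference 0.0151, exact permutation p = 0.9).

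BTN3A2 (ENSG00000186470, 26365159 to 26378320, plus strand, 5′ end at 26365198), which encodes a form without the intracellular B30.2 domain, had the longest mean coverage in both genotypes. Its covered length was 2603, 2283 and 1817 bp in the WT and 1600, 1730 and 1547 bp in the KO libraries, without overlap. WT libraries averaged 2234 ± 395 bp and KO libraries 1626 ± 94.2 bp (SD, n = 3 each), 609 bp apart (exact permutation p = 0.1). After scaling, the direction turned, with 0.782, 0.701 and 0.918 in WT and 0.825, 0.978 and 0.926 in KO (difference -0.11, exact permutation p = 0.2).

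BTN3A1 (ENSG00000026950, 26402237 to 26415208, plus strand, 5′ end at 26402275), whose B30.2 domain binds phosphoantigens, had WT replicates 1 and 2 well above the other 4 lists. Its covered length was 2537, 2122 and 1182 bp in the WT and 1245, 1177 and 1295 bp in the KO libraries. WT replicate 3 lay among the KO values, and WT replicate 3 minus the highest KO library was -113 bp. WT libraries averaged 1947 ± 694 bp and KO libraries 1239 ± 59.2 bp (SD, n = 3 each), 708 bp apart (exact permutation p = 0.3). The difference was 1090.5 bp without WT replicate 3 and 413 bp without WT replicate 1 (exact permutation p = 0.1 and p = 0.3). Scaled values were 0.762, 0.651 and 0.597 in WT and 0.642, 0.665 and 0.775 in KO (difference -0.0241, exact permutation p = 0.6).

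BTN3A3 (ENSG00000111801, 26440472 to 26453415, plus strand, 5′ end at 26440504) had the largest difference in covered length of the members within 3 kb, and the smallest within 1 kb, at 214 bp. Its covered length was 2176, 2195 and 1924 bp in the WT and 987, 1249 and 1604 bp in the KO libraries, without overlap. WT libraries averaged 2098 ± 151 bp and KO libraries 1280 ± 309.7 bp (SD, n = 3 each), 818 bp apart (exact permutation p = 0.1). WT replicate 3 exceeded the highest KO library by 320 bp, the widest such lead among the members. Scaled values spread widely inside each genotype, at 0.653, 0.674 and 0.972 in WT and 0.509, 0.706 and 0.960 in KO (difference 0.0413, exact permutation p = 0.9).

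Over the members, every WT library exceeded every KO library at 3 of the 5 covered promoters, BTN3A2, BTN3A3 and BTN2A1. Among the 14422 promoters covered in any library 50.8% showed the same separation, and 0.111% the reverse, so the members' count lies near the background. With p-values adjusted over all 14422 promoters by the Benjamini-Hochberg method, the adjusted exact permutation p was 0.196 at these 3 genes, 0.245 at BTN2A2 and 0.335 at BTN3A1. No promoter of the 14422 had an adjusted p below 0.196. On the scaled measure no member was separated in either direction, against 5.75% of promoters with every WT above every KO and 12.1% with the reverse.

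The members' differences of 426 to 818 bp were all below the median difference of 998 bp over the 13399 promoters covered in all 6 libraries. They stood between the 7.82 and 32.4 percentiles of those differences. The mean KO length divided by the mean WT length was 0.57 at BTN2A2, 0.61 at BTN3A3, 0.62 at BTN2A1, 0.64 at BTN3A1 and 0.73 at BTN3A2, around the median of 0.65 over the same promoters. WT replicate 3 exceeded all 3 KO libraries at 3 members, by 87 bp at BTN3A2, 320 bp at BTN3A3 and 24 bp at BTN2A1. It did so at 54.4% of the promoters covered in these 4 lists, while KO replicate 1 exceeded the other 3 at 37.2%, KO replicate 2 at 5.43% and KO replicate 3 at 2.63% of them. At BTN2A2 the highest of these 4 was KO replicate 1 and at BTN3A1 it was KO replicate 3.

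**Figure D2:**
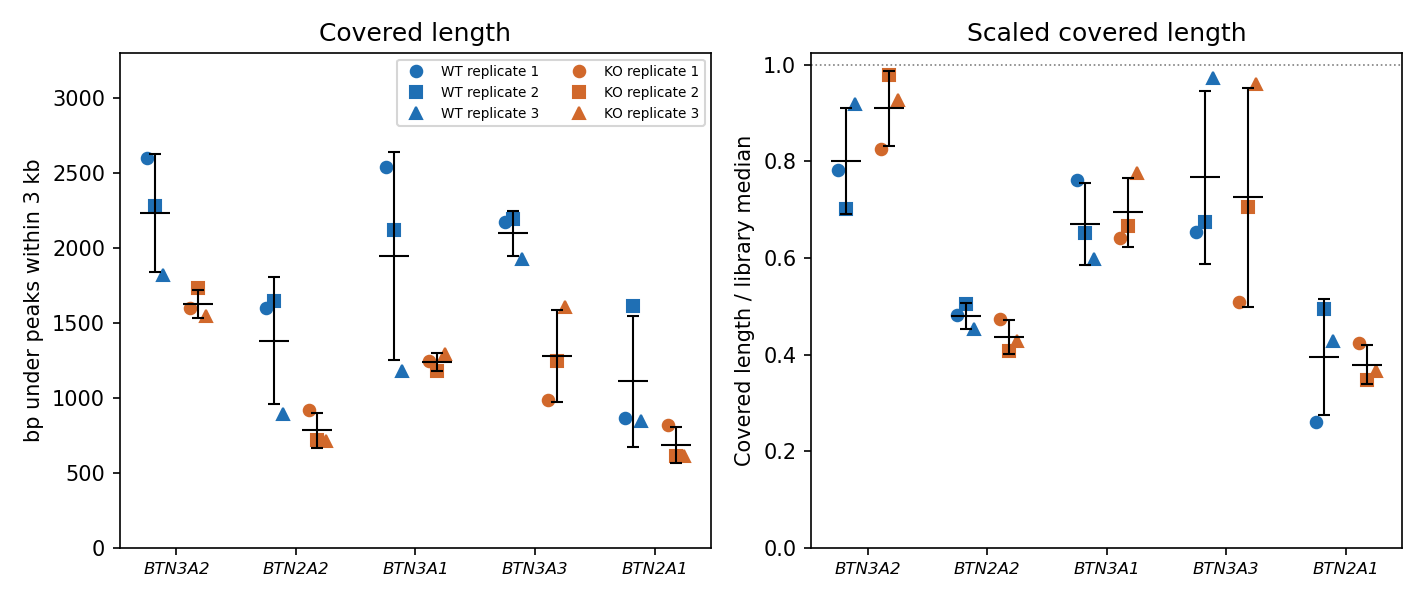
Left, bp under peaks within 3 kb of the 5′ end; right, the same divided by the median of the library, for 5 members. Points are libraries (WT blue, KO orange, marker by replicate) and black bars are the mean ± SD of 3 libraries. WT replicates 1 and 2 are the highest of the 6 libraries on the left at each of the 5 genes, and on the right the genotypes overlap at every gene.

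At the BTN3A genes the upstream edge lay near the 5′ end in many libraries. At BTN3A1 the peak began at -679, -617 and -43 bp from the 5′ end in WT and at -287, -6 and -10 bp in KO. At BTN3A3 it began at -105 and -532 bp in WT replicates 1 and 2, and between -28 and 5 bp in the other 4 libraries. The BTN3A3 peaks of WT replicate 3 and KO replicate 3 and the BTN3A2 peak of KO replicate 3 thus started 2, 5 and 4 bp past the 5′ end. Over all promoters 61.3% had the 5′ end itself under a peak in all 6 libraries, as did 3 members, BTN2A2, BTN3A1 and BTN2A1. Among promoters called in all 6 libraries 97.1% had it under a peak in all 3 WT libraries, and of the 5 members so called 4 did, all except BTN3A3.

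The X-Y pair shown above lay outside many of these peaks. It was wholly covered in 5 of the 6 libraries at BTN3A2, 3 at BTN3A1, 2 at BTN3A3 and 4 at BTN2A1. By genotype these were 3 WT and 2 KO libraries at BTN3A2, 2 WT and 1 KO at BTN3A1, 2 WT and 0 KO at BTN3A3 and 3 WT and 1 KO at BTN2A1. The KO replicate 1 peak covered the pair at each of the 4 genes except BTN3A3. WT replicates 1 and 2, the lists with the widest peaks, covered the pair at each of the 4 genes. The share of all promoters with a stretch at such a distance covered in more WT than KO libraries was not computed. How far the kind of list sets these counts was not tested.

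**Figure D3:**
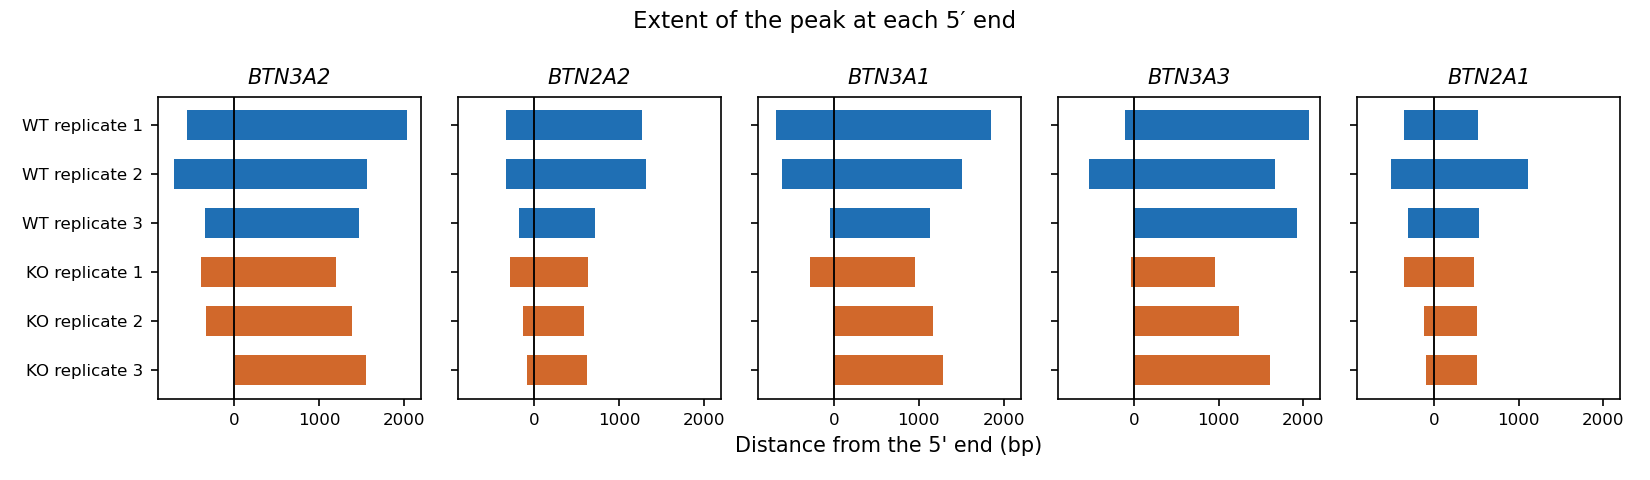
Extent of the peak at the 5 marked promoters in each library, as distance in bp from the 5′ end (vertical line), WT in blue and KO in orange. Peaks reach further downstream than upstream in every panel, and at BTN3A3 4 of the 6 begin within 28 bp of the 5′ end.

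The BTN2A and BTN3A promoters carried peaks of different shape in every library, a description made after the values were seen and given with no test. In each of the 6 libraries every BTN3A peak was wider than every BTN2A peak. Mean BTN3A width was 2439, 2200 and 1641 bp in the WT and 1277, 1385 and 1482 bp in the KO libraries. Mean BTN2A width was 1235.5, 1631 and 871 bp in WT and 871, 667.5 and 663 bp in KO. The ratio of the means ran from 1.35 in WT replicate 2 to 2.24 in KO replicate 3.

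Fold enrichment, which the peak caller gives as ChIP signal over local background averaged along the peak, went the other way. In each of the 6 libraries both BTN2A peaks stood above all 3 BTN3A peaks, by 1.56 times in KO replicate 1 to 2.27 times in KO replicate 3 for the means. BTN2A1 had fold enrichments of 14.6, 16.2 and 8.77 in WT and 9.41, 11.6 and 12.2 in KO. BTN2A2 had 15.7, 12.8 and 7.86 in WT and 8.46, 9.92 and 9.88 in KO. The BTN3A peaks lay between 4.55 and 8.91 over all libraries. Because these values depend on the list, the rank inside each list is given too.

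Ranked within its own list, the BTN2A2 peak stood at the 55.7 and 47.5 percentiles of fold enrichment in WT replicates 1 and 2 and at 99.1 in WT replicate 3. In the KO lists it stood at 99.4, 99.7 and 99.7. The BTN2A1 peak was at 52.7, 55.0 and 99.7 in WT and at 99.7, 99.9 and 99.9 in KO. In the 4 lists with narrower peaks both genes thus lay in the top percent of the list by fold enrichment, whichever the genotype. By −log10 q, the significance the peak caller gives, they ranked lower in those 4 lists. There BTN2A2 stood at the 59.7 to 73.5 percentiles and BTN2A1 at 63.4 to 86.9. The BTN3A peaks ranked between 32.9 and 39.3 in WT replicates 1 and 2 and between 47.5 and 91.5 in the other 4 lists. By width the BTN2A peaks were in the lower part of every list, at the 16.3 to 37.9 percentiles, and the BTN3A peaks at 32.2 to 70.9.

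**Figure D4:**
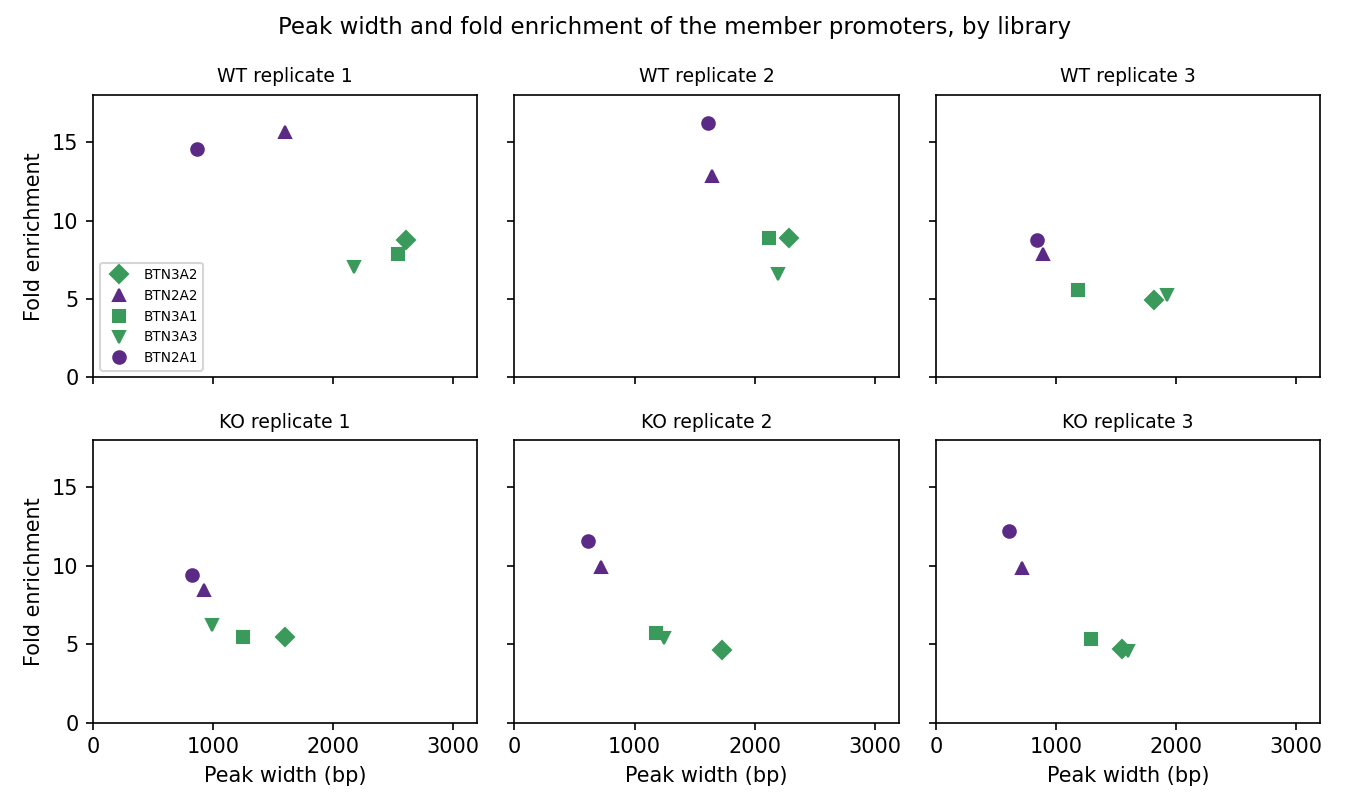
Peak width in bp against fold enrichment at the member promoters, 1 panel per library, BTN2A genes in purple and BTN3A genes in green, with a marker for each gene. In each panel the BTN2A peaks sit to the left of and above the BTN3A peaks.

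A further 2 places inside the cluster carried a peak in each of the 6 libraries. The first, 748 to 1320 bp wide, covered the 5′ ends of BTN2A3P, a butyrophilin pseudogene transcribed as a lncRNA from 26421391 on the plus strand. Its width was 1012 ± 271 bp in WT against 818 ± 63.7 bp in KO libraries (SD, n = 3 each, exact permutation p = 0.3). Its fold enrichment ranked at the 45.5, 41.7 and 99.2 percentiles in the WT lists and at 99.0, 99.7 and 99.2 in the KO lists, close to the ranks of the BTN2A genes.

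The second place lay inside BTN2A1, between 26473512 and 26475663, beyond the end of the MANE Select transcript and over no annotated BTN2A1 exon. It spans the 5′ end of the lncRNA ENSG00000290055 at 26474337. The width was 2037, 2100 and 1466 bp in the WT and 1526, 1386 and 1040 bp in the KO libraries (exact permutation p = 0.2). WT replicate 3 fell below KO replicate 1 here, as at BTN2A2.

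BTN2A2 was then set beside the class II genes, since CIITA is known to act on both. The covered length of each was scaled by the library median, and the difference between the gene and BTN2A2 was compared between genotypes. CIITA (1.16 in WT and 0.24 in KO), HLA-DRA (0.99 and 0.18), HLA-DMA (0.62 and 0) and HLA-DOA (0.32 and 0) each had a value minus that of BTN2A2 (0.48 and 0.44) that was higher in every WT than in any KO library. The differences between the WT minus KO values were 0.881, 0.762, 0.575 and 0.281 (exact permutation p = 0.1 for each, the smallest possible, in 6 comparisons with genes chosen with their results known). CD74, the invariant chain, and HLA-DMB did not separate from BTN2A2 in this way (0.615, exact permutation p = 0.4, and 0.142, exact permutation p = 0.6). At CD74 the 2682 bp of KO replicate 2 stood against 0 bp in KO replicates 1 and 3. The share of all promoters that separate from BTN2A2 in this way was not computed. In scaled covered length itself 5.75% of covered promoters had every WT above every KO library.

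KO replicate 2, the clone with peaks at CD74, HLA-DRA and within 3 kb of CIITA, is described here at the members too. Its BTN2A2 length of 719 bp lay between the 714 and 920 bp of the other KO libraries, and its scaled value of 0.406 was the lowest of the 6. Its BTN3A2 length of 1730 bp was the longest among the KO libraries and below the 1817 bp of WT replicate 3, while its scaled value of 0.978 was the highest of the 6. At BTN3A1 its length of 1177 bp was the shortest of the 6. At BTN3A3 and BTN2A1 its lengths of 1249 and 616 bp lay between those of the other KO libraries.

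**Figure D5:**
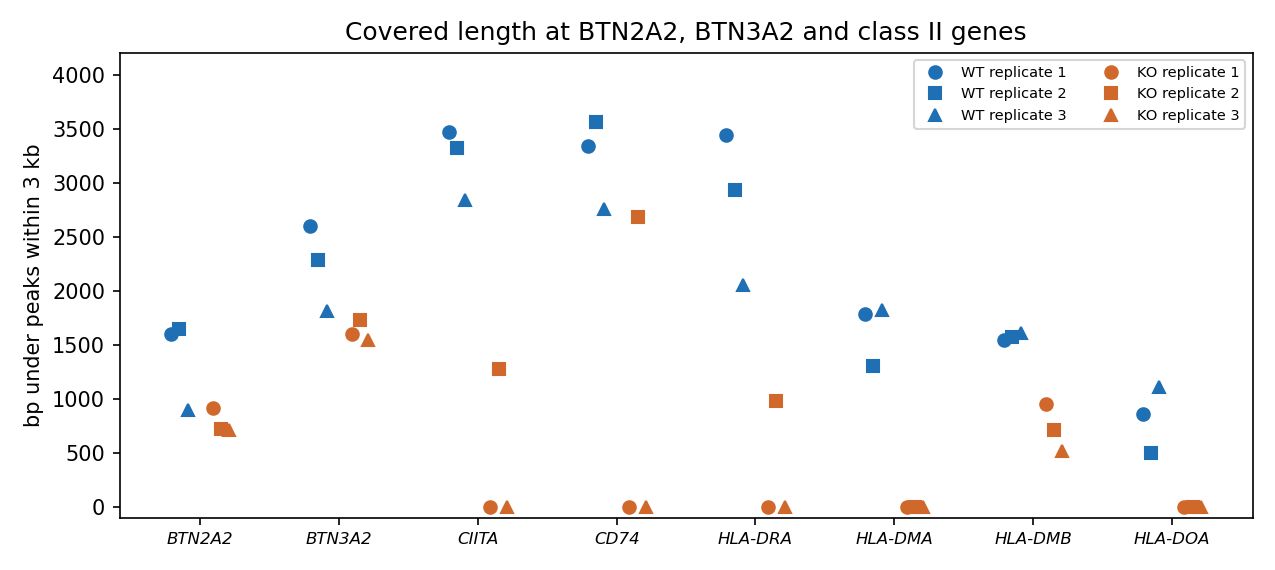
Covered length in bp within 3 kb of the 5′ end at BTN2A2, BTN3A2 and 6 genes of the CIITA and class II axis, for 3 WT (blue) and 3 KO (orange) libraries. Every library has coverage at BTN2A2 and BTN3A2, while 2 KO libraries are at 0 bp at CIITA, CD74 and HLA-DRA and all 3 at HLA-DMA and HLA-DOA.

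Related genes elsewhere in the genome gave few peaks. Of the 6 butyrophilin-like genes with an annotated protein-coding promoter, ERMAP, the erythroid membrane protein, was the only covered gene. It had a call in all 6 libraries and 2148 ± 361 bp in WT against 1706 ± 51.3 bp in KO libraries (SD, n = 3 each, exact permutation p = 0.2). The 5′ end of SVBP, on the minus strand at 42817397, lies near that of ERMAP at 42817122. SVBP had the same covered length as ERMAP in every library, so the peak cannot be assigned to ERMAP alone. After scaling the direction turned at ERMAP, with every KO above every WT library (difference -0.186), which 12.1% of covered promoters also showed. BTNL2, BTNL3, BTNL8, BTNL9 and MOG had no peak within 3 kb in any library. Among all promoters 65.1% were called within 1 kb in all 6 libraries and 30.3% in none. BTNL10P was not analysed here.

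Among the factors that act on these promoters, 10 of 11 were called in all 6 libraries, against 65.1% of all promoters. Those called included NLRC5, RFX5, RFXAP, RFXANK, NFYA, NFYB, NFYC, CREB1 and IRF1. CIITA, called within 1 kb of its MANE Select 5′ end in 3 WT and 0 KO libraries, was the exception. Every WT exceeded every KO library in covered length at 7 of the 11, against 50.8% of all covered promoters. The median difference was 1134 bp, against 998 bp over the promoters covered in all 6 libraries. The smallest adjusted exact permutation p was 0.196. At NLRC5, the class I transactivator, the length was 6001, 6001 and 2558 bp in WT and 2573, 2486 and 2456 bp in KO, and the genotypes overlapped (scaled difference 0.245). The 6001 bp of WT replicates 1 and 2 fill the whole window of 3 kb to either side, the highest value possible. For RFX5, a subunit of the complex that binds the X box, it was 2272 ± 358 bp in WT against 1799 ± 59.8 bp in KO libraries (SD, n = 3 each), and the scaled difference was -0.190. On the scaled measure 1 of the 11 factors, CIITA, had every WT above every KO library and 2 had the reverse. Over all covered promoters these shares were 5.75% and 12.1%.

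The γδ antigen list held 8 genes of isoprenoid synthesis and of BTN3A1 partners, and 6 were called in all 6 libraries, against 65.1% of all promoters. The genes so called included FDPS, MVK, MVD and IDI1 of isoprenoid synthesis and RHOB, a GTPase that acts with BTN3A1. PPL, which encodes periplakin, had no peak. ABCA1, a lipid exporter, was called in 3 WT libraries and 1 KO library, with 1862 ± 537 bp in WT against 989 ± 193 bp in KO libraries (SD, n = 3 each), and a scaled difference of 0.177. Every WT exceeded every KO library at 3 of the 7 covered genes (MVD and ABCA1 among them), against 50.8% of all covered promoters. On the scaled measure none had every WT above every KO library, and RHOB, MVK and IDI1 had the reverse. The shares of all covered promoters were 5.75% and 12.1%.

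Histone genes lie on one side of the cluster and HMGN4 on the other. Of the 25 other protein-coding genes with a 5′ end within 250 kb, 14 were called in all 6 libraries and 11 in none, so no neighbour separated the genotypes by its call. Some histone genes share peaks, so these neighbours are not independent. Complete separation in covered length was found at 2 of the 14 covered neighbours, HMGN4, a nucleosome-binding protein gene, and ZNF322, against 50.8% of all covered promoters. The median difference over the 14 was 1411 bp, against 609 bp over the 5 covered members. On the scaled measure the medians were -0.0529 and 0.0151. After scaling no neighbour had every WT above every KO library and 2 had the reverse, against 5.75% and 12.1% of covered promoters. HMGN4, the nearest of them downstream, had 3644 ± 760 bp in WT against 2602 ± 83.5 bp in KO libraries (SD, n = 3 each), and its scaled difference was -0.162.

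The promoters with covered lengths most like BTN2A2, by Euclidean distance of the 6 scaled values, were ACBD7, FURIN and NUDT10, at distances of 0.0921, 0.115 and 0.116. The nearest member was BTN2A1 at 0.243, and BTN3A2 was the farthest covered member at 1.02. The median over all covered promoters was 1.30. For BTN3A2 the closest were GOSR2 and the readthrough gene ENSG00000262633, which share 1 promoter and a distance of 0.0696, followed by UFSP2 at 0.0817. Its nearest member was BTN3A3 at 0.442.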

How the data were processed

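H3K4me3 ChIP-seq peak lists from 3 WT and 3 ZBTB48 KO U2OS clones were used. The 2 WT inputs were not used here. Per the labels and the study's methods, the authors used Trimmomatic for adapters and Bowtie2 2.3.5.1 for alignment to GRCh38, discarded duplicates and reads with several positions, and ran MACS2 2.1.1.2 on each library in broad mode at q of 0.05. Use of an input as control is not given in the sources used here. The fold enrichment ratio and −log10 q the authors deposited were compared only within a list, and the deposited −log10 p served only to rank peaks where lists were cut to equal numbers. The deposited score was not used. The lists carry no counts, so depth is unknown and no counting interval was computed. The read-based differential test of the study could not be run on such lists.

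Only autosomes (1 to 22), X and Y entered, with 1-based GRCh38 positions, which are the positions of the reference used here. The 5′ ends came from GENCODE release 44 (MANE Select, else canonical transcript). Covered length was bp under peaks within 3 kb of the 5′ end, and a call was any peak within 1 kb. Genotypes were compared by an exact permutation test, two-sided, over all 20 ways to assign the 6 libraries, adjusted over all covered promoters by the Benjamini-Hochberg method. The test and the counting of separated promoters were tested on simulated lists. Any 2 lists had at most 2 peaks with the same start and end. The clones are separate, so the spread between libraries is between clones as well as technical. Python 3.11.15, numpy 2.4.6, scipy 1.17.1 and matplotlib 3.10.9 were used.

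Members and gene lists were chosen with earlier results of these data known. The genes named were the 6 members, neighbours within 250 kb, 5 further lists (butyrophilin-like, regulators, γδ antigen, class II and lineage markers) and the 3 promoters most like BTN2A2 and most like the BTN3A gene with the longest coverage. Single values of some listed genes are not reported here. Alternatives kept only peaks with −log10 q from 3 up or fold enrichment from 4 up, or used equal peak numbers per list, windows of 1 and 5 kb, all annotated 5′ ends, scaling, calls of at least 500 bp, WT replicate 3 alone, each library left out in turn, and the replicate number as a block.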

Additional observations from a re-analysis of the deposited data

How the results depend on the processing

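With 3 libraries against 3 and a smallest p of 0.1, no result could pass a threshold of 0.05, so the settings speak only to direction and size. Peaks with −log10 q of at least 3 and peaks with fold enrichment of at least 4 gave the same 5 differences, since every member peak passed both. Equal numbers of peaks per list, a 5 kb window and all annotated 5′ ends gave the same 5 differences too. In a 1 kb window they ran from 214 bp at BTN3A3 to 402 bp at BTN2A2. Without WT replicate 3 the difference at BTN3A1 (1090.5 bp) exceeded that at BTN3A3 (905.5 bp). The number of members called was 5 in every library under each of the 12 alternatives run. Scaling turned the direction at BTN3A2 (-0.11) and BTN3A1 (-0.0241), and WT replicate 3 against the KO mean turned it at BTN3A1 (-57 bp). By percentile of covered length within the library, the scaled difference of BTN3A1 turned to 0.349 percentile points. The share of promoters with every WT above every KO moved from 50.8 to 5.75% with scaling. Leaving out each library in turn, the difference in covered length kept its direction at all 5 members and ranged from 174 to 558 bp at BTN2A1, 465 to 841 bp at BTN2A2, 413 to 1090.5 bp at BTN3A1, 424 to 817 bp at BTN3A2 and 672 to 980.3 bp at BTN3A3. The scaled difference then ranged from -0.0352 to 0.0819 at BTN2A1, -0.0700 to 0.0165 at BTN3A1 and -0.0669 to 0.159 at BTN3A3, and it kept its direction at BTN2A2 (0.0290 to 0.0628) and BTN3A2 (-0.169 to -0.0598). The cause of these turns was not tested.

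The replicate numbers do not pair the samples. Deviations from the group means correlated at -0.00952, 0.0171 and 0.0932 between same-numbered libraries over 14422 promoters, and each number marks a different clone in each genotype. With the replicate number as a block the differences were the same, 598 bp at BTN2A2 for example, with exact sign-flip p = 0.25, the smallest possible, at every covered member other than BTN3A1 (exact p = 0.5).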
